A study of Mus musculus with 2 samples.

Results

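The growth hormone axis of the liver was followed here through 8 genes: Ghr, Stat5b, Igf1, Igfals, Socs2, Cish and the major urinary protein genes Mup11 and Mup17. They were taken by gene symbol from the 19465 rows of the deposited count tables, and all 8 were listed and had at least 50 UMIs (unique molecular identifiers, 1 for each captured probe molecule) over both sections. They were chosen by their UMI levels in these same libraries, over the sections and along the lobule, so the levels, ratios and gradients below are a description, with no test. The tables came from 10x Visium slides for fixed, paraffin-embedded samples, where paired probes are ligated on the RNA of a section and counted on barcoded spots. The mice were naïve female littermates of 8 weeks, 1 of genotype AEG-1-WT (WT below) and 1 of genotype AEG-1-C75S (C75S below), and each gave 1 liver section of 5 μm. In C75S, a CRISPR/Cas9 knock-in replaced the palmitoylated cysteine of AEG-1, the protein of the Mtdh gene, by serine in every cell that expresses it, and the wild-type littermates came from the same crosses of heterozygotes. The hour of sampling and the feeding state were not given in the sources used here.

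Growth hormone is released by the pituitary and binds its receptor Ghr on hepatocytes, where the kinase Jak2 phosphorylates the transcription factor Stat5b. Phosphorylated Stat5b enters the nucleus and binds the motif TTCNNNGAA, and its best known targets include Igf1, which is secreted by the liver as the circulating insulin-like growth factor, Igfals, whose product holds that factor in a stable complex in blood, and the feedback inhibitors Socs2 and Cish. Rodents release the hormone in pulses in males and more evenly in females, and this pattern sets much of the sex difference of liver transcripts, among them those of the major urinary proteins. These are small lipocalins that hepatocytes secrete into the blood, pass into the urine and carry pheromones there.

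A spot covers several cells, so a count is a sum over the cells under it, and fewer cells of a type cannot be told apart from less RNA per cell. Spots with at most 50000 UMIs were used, which left 2309 spots with 42246988 UMIs in WT and 2163 spots with 41674347 UMIs in C75S. The median depth was 16830 and 18808 UMIs per spot, and the depth spread more widely in C75S. The 1896 barcodes that both sections hold come from the design of the slide and mark positions, not shared cells. Alb, the hepatocyte product albumin, was at 127352 CPM in WT and 120952 CPM in C75S, where CPM is the sum of UMIs over the total of the same spots, scaled to a common total. The other hepatocyte markers were less even, since Apoa1 was 1.42-fold higher in C75S (log2 ratio 0.50), Tat was 2.04-fold lower (-1.03) and Ttr was not called (0.19). The 4 Y-linked genes looked at had no UMI in either section. Markers of some other cells moved between the sections. Of the Kupffer cell markers, 4 of 5 (all but Clec4f, 0.10) were at least 1.3-fold higher in C75S, led by Marco at 34.8 and 107 CPM. All 4 connective tissue markers were lower, with log2 ratios from -1.58 to -1.24, and both cholangiocyte markers and the 3 listed haemoglobin genes were lower too. Of the stellate cell markers only Ecm1 was called (0.42), and no sinusoidal endothelium marker was. Among all genes with at least 50 UMIs, 4.58% were called higher and 9.77% lower. The part of these cells in the ratios below was not tested.

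Because the Mup genes are near-identical copies, their coding sequences show what a probe can and cannot tell apart. Mup11 lies on chromosome 4 at chr4:60658466-60662432 and Mup17 at chr4:61591929-61595865 of GRCm38 (the mm10 build of the files), within the Mup cluster, both on the minus strand by their coding annotation. Their coding sequences, taken from the GENCODE vM21 transcripts, have 546 and 543 bases and are 98.5% identical, with the substitutions T159A, A160C, T223G, G252C and T369C (Mup11 base, position counted from 1 at the first base of the Mup11 coding sequence, Mup17 base) and a gap of 3 bases. The stretch with 4 of the 5 substitutions, bases 133 to 252 of Mup11 and 130 to 249 of Mup17 on the spliced coding strand, reads as follows, with the differing bases in capitals.
Mup11: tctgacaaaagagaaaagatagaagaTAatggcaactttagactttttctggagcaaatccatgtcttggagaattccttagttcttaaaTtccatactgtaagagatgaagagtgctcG
Mup17: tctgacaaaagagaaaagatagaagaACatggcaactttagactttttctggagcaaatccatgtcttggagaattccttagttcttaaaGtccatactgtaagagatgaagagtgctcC
A pair of probes in this assay covers 50 bases. Of the 497 windows of that length in Mup11, all are also found in the coding sequence of at least 1 other Mup gene, and 447 of them are in Mup18. Of the 494 windows in Mup17, 444 (89.9%) are found elsewhere in the family, and the 50 windows of its own lie between bases 317 and 415. The share was 98.0% in Mup10 and 94.9% in Mup12, but 24.3% in Mup3 and 4.63% in Mup20, whose coding sequences stand farther from the rest. Which windows the probes use was not in the sources, so the counts of Mup11, Mup17, Mup10, Mup12 and Mup18 are uncertain between these genes and the Mup genes that the tables do not list.

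The copies are also alike before the gene. The RefSeq promoter windows (GRCm38.p6) run from 250 bases before to 50 bases after the annotated start. For Mup11 and Mup17, the 250 bases before that start were aligned. The part upstream of both annotated genes is shown because the counts listed under these names differed in direction between the sections. It covers chr4:60662433-60662622 for Mup11 and chr4:61595892-61596082 for Mup17, both read on the minus strand, and over 191 aligned columns they differed by 1 substitution and 1 gap column, set in capitals.
Mup11: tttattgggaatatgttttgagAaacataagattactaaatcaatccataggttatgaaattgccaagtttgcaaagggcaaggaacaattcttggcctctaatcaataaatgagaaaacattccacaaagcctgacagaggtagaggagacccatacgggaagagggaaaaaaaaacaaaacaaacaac
Mup17: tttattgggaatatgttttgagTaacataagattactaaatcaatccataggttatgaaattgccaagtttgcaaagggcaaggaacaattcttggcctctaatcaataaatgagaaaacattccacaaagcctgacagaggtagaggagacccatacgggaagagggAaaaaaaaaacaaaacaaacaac

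The other 6 genes lie apart from that cluster. In RefSeq on the same build, Ghr spans chr15:3317755-3583352, Stat5b chr11:100780731-100859004, Igf1 chr10:87858265-87937047, Socs2 chr10:95383903-95417321, Igfals chr17:24877844-24882011 and Cish chr9:107296659-107302784. The motif TTCNNNGAA, which reads the same on both strands, was looked for in the same RefSeq windows of 300 bases. It was found in 2726 of the 32851 windows of all genes (8.30%) and at least 2 times in 150 of them (0.457%). Cish holds 2 copies, the only one of the 7 genes with a window to hold more than 1 copy in the same window, at chr9:107296659-107296667 and chr9:107296670-107296678 on the plus strand. The first copy begins at the annotated start and the second lies after it. Igfals holds 1 copy in each of 2 of its 3 windows, at chr17:24877608-24877616 and, inside the annotated gene, at chr17:24878173-24878181, both on the plus strand. These sites are shown with flanking bases, over chr9:107296654-107296683 for Cish, and with the motif in capitals.
Cish: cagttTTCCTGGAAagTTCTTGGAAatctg
Igfals, first window: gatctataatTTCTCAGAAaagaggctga
Igfals, second window: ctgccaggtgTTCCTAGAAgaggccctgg
These letters do not occur in the windows of Mup11, Mup17, Ghr, Stat5b or Igf1, and no window of Socs2 was used here. A match of letters does not show that Stat5b is bound there.

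Over the whole sections, the feedback inhibitors Socs2 and Cish and the urinary protein gene Mup17 were higher in C75S, Mup11 was lower, and the receptor, the transcription factor and the secreted factors differed less. A gene was called where the sums differed by at least 1.3-fold and 0 lay outside the 95% interval of their log2 ratio. That interval was derived exactly from the binomial split of both UMI sums and covers counting error only, so each ratio compares these libraries and not the genotypes. By this rule 3 of the 8 genes were higher and 1 was lower, beside 4.58% higher and 9.77% lower (14.3% either way) among the 11998 genes with at least 50 UMIs, but since the choice of the genes used these ratios, nothing is read from the counts. The median log2 ratio was 0.12 for the 8 genes and -0.05 for all genes.

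Socs2, a suppressor of cytokine signalling that binds the phosphorylated receptor, had 165 UMIs in WT (95% exact Poisson interval 141 to 192) and 426 in C75S (387 to 468). This was 3.91 against 10.2 CPM, a 2.62-fold higher level (log2 ratio 1.39, interval 1.13 to 1.66), and the widest ratio of the 8 genes stood on its lowest counts. Of all genes, 0.267% had a larger ratio, but the choice of Socs2 used this ratio, so nothing is read from its rank. A UMI of Socs2 was found on 6.93% of the WT spots (exact binomial interval 5.93 to 8.04) and on 17.4% of the C75S spots (15.8 to 19.05). After thinning all spots to 5000 UMIs, without 6 and 17 spots that had fewer, the shares were 1.69% and 5.27%, so the order was the same at matched depth.

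Cish, the related inhibitor that competes for the docking sites of Stat5b on receptors, had 1565 UMIs in WT and 2776 in C75S. Its level was 37.0 CPM (35.2 to 38.9) against 66.6 CPM (64.2 to 69.1), 1.80-fold higher (log2 ratio 0.85, interval 0.76 to 0.94). The share of spots with a UMI was 48.0% and 68.2%, and 17.0% and 28.2% after thinning. Both inhibitors were thus higher in the same section at matched depth.

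Ghr, the receptor, was measured on nearly all spots and had 23868 UMIs in WT and 20391 in C75S. Its level was 565 CPM (558 to 572) against 489 CPM (483 to 496), lower by less than the 1.3-fold limit (log2 ratio -0.21, interval -0.23 to -0.18). Stat5b had 2688 and 2915 UMIs, or 63.6 CPM (61.2 to 66.1) and 69.9 CPM (67.4 to 72.5), with a log2 ratio of 0.14 (0.06 to 0.21). The 2 genes that carry the signal inwards therefore lay on opposite sides of 0, and neither was called.

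Igf1 had 36608 UMIs in WT and 38576 in C75S, which is 867 CPM (858 to 875) and 926 CPM (916 to 935). The log2 ratio of 0.10 (0.07 to 0.12) was the smallest of the 8 genes. Igfals, which encodes the acid-labile subunit of the circulating complex, went the other way, with 8836 UMIs (209 CPM, 205 to 214) and 6983 UMIs (168 CPM, 164 to 172). Its log2 ratio of -0.32 (-0.37 to -0.27) is 1.25-fold lower in C75S and lay just outside the limit for a call, while Mup11, at 1.42-fold, was the nearest gene inside it.

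Mup11 had 13835 UMIs in WT and 9579 in C75S, or 327 CPM (322 to 333) and 230 CPM (225 to 235), a log2 ratio of -0.51 (-0.55 to -0.47). Mup17 had 71529 and 104481 UMIs, or 1693 CPM (1681 to 1706) and 2507 CPM (2492 to 2522), a log2 ratio of 0.57 (0.55 to 0.58). The counts listed as Mup11 and Mup17 thus differed in opposite directions, 1.42-fold lower and 1.48-fold higher in C75S. Which Mup copies each of these counts holds is uncertain, as given above. At a limit of 1.5-fold neither would be called.

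**Figure D1:**
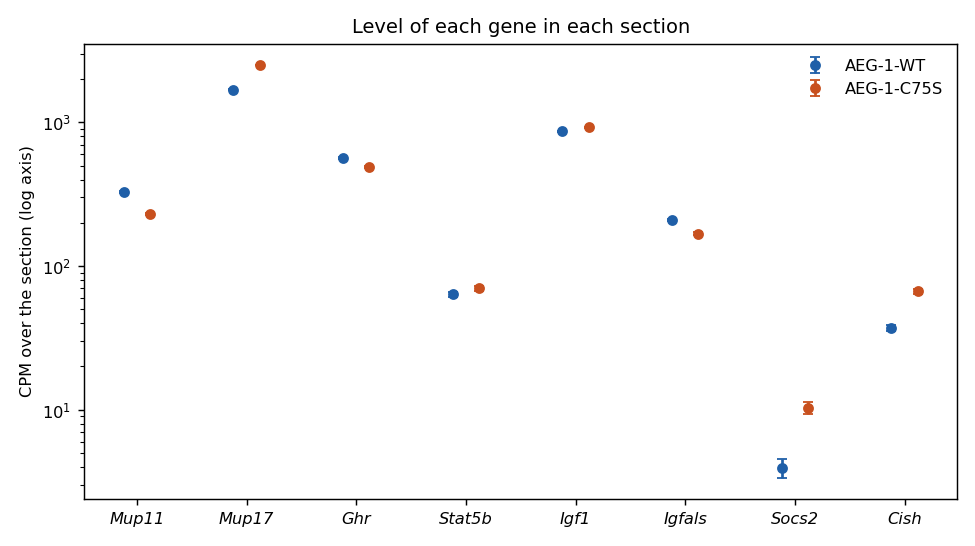
Level of each of the 8 genes in each section, as CPM on a log axis, with 95% exact Poisson intervals, which are narrower than the points for most genes. Socs2 and Cish stand higher in C75S (10.2 against 3.91 CPM and 66.6 against 37.0 CPM), and Mup11 and Mup17 move in opposite directions; levels of different genes are not compared, since probe number and length differ.

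The whole Mup family, 9 rows of the tables, was read beside these genes. Mup3, the urinary protein gene with the highest count, fell from 5927 to 4459 CPM (log2 ratio -0.41), and Mup20, which encodes the male pheromone darcin, from 160 to 106 CPM (-0.59, interval -0.65 to -0.54). Mup10 was at 369 and 438 CPM (0.25), Mup12 at 6.11 and 6.77 CPM (0.15, interval -0.10 to 0.40), and Mup18 at 0.994 and 1.13 CPM (0.18, interval -0.45 to 0.82). Of the 7 members tested, 1 was higher (Mup17), 3 were lower (Mup3, Mup11 and Mup20) and 3 were not called, beside 4.58% higher and 9.77% lower among all genes. The choice of Mup11 and Mup17 used these values, so nothing is read from the count. The 2 least detected rows, Mup4 and Mup6, had 1 and 5 UMIs over both sections in all. The call of Mup3 ended when the totals left out the 20 most abundant genes (-0.37), with TMM factors (-0.35) and when ratios were centred on the median gene (-0.37). All Mup rows together made up 0.848% of the UMIs in WT and 0.775% in C75S. Among the tested Mup genes, Mup3 and Mup20 had mostly unshared sequence and both were lower.

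To place the genes in the liver lobule, the spots of each section were ordered by the ratio of Cyp2f2, a periportal enzyme, to Cyp2e1, a pericentral one, each plus 1 UMI, and cut into 5 bins of equal spot number. Bin 1 is the periportal side and bin 5 the pericentral side. The order was borne out by markers it did not use: the summed level of 6 periportal genes fell from 6989 to 3076 CPM from bin 1 to bin 5 in WT and from 5505 to 2450 CPM in C75S, while Cyp1a2 and Oat together rose from 382 to 2715 and from 348 to 2174 CPM. Cholangiocyte markers were concentrated on the periportal side, at 233 and 135 CPM in bin 1. The bins were set within each section, and their limits on the ratio differed, with bin 5 reaching up to 0.061 in WT and up to 0.086 in C75S.

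Both urinary protein genes rose steeply towards the central vein in both sections. Mup11 was at 141, 195, 288, 478 and 538 CPM from bin 1 to bin 5 in WT and at 97.8, 148, 206, 303 and 392 CPM in C75S. Its level in bin 5 was 3.81-fold that in bin 1 in WT and 4.01-fold in C75S (log2 ratio of bin 1 over bin 5 -1.93, interval -2.03 to -1.83, and -2.003, -2.12 to -1.89), and these intervals overlap. Each of the 4 steps between neighbouring bins was a rise whose counting interval did not reach 0.

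Mup17 was at 891, 1137, 1462, 2175 and 2835 CPM in WT and at 1403, 1852, 2291, 3051 and 3922 CPM in C75S. Bin 1 of C75S therefore lay near bin 3 of WT. The pericentral excess was 3.18-fold in WT (log2 -1.67, interval -1.71 to -1.63) and 2.79-fold in C75S (-1.48, -1.51 to -1.45). With these 5 bins the gradient was shallower in C75S by more than the counting error. With 10 bins it was -1.90 in WT and -1.87 in C75S, so this difference depended on the number of bins. By a limit of 1.5-fold along the axis, Mup11 and Mup17 were the 2 genes of the 8 called in each section, beside 9.41% of 11283 genes called either way in WT and 7.41% of 11168 in C75S. Of all genes, 5.25% and 4.65% were called higher in bin 5, and no gene of the 8 was called on the periportal side, beside 4.17% and 2.77%. The choice of the genes used this axis, so nothing is read from these counts.

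**Figure D2:**
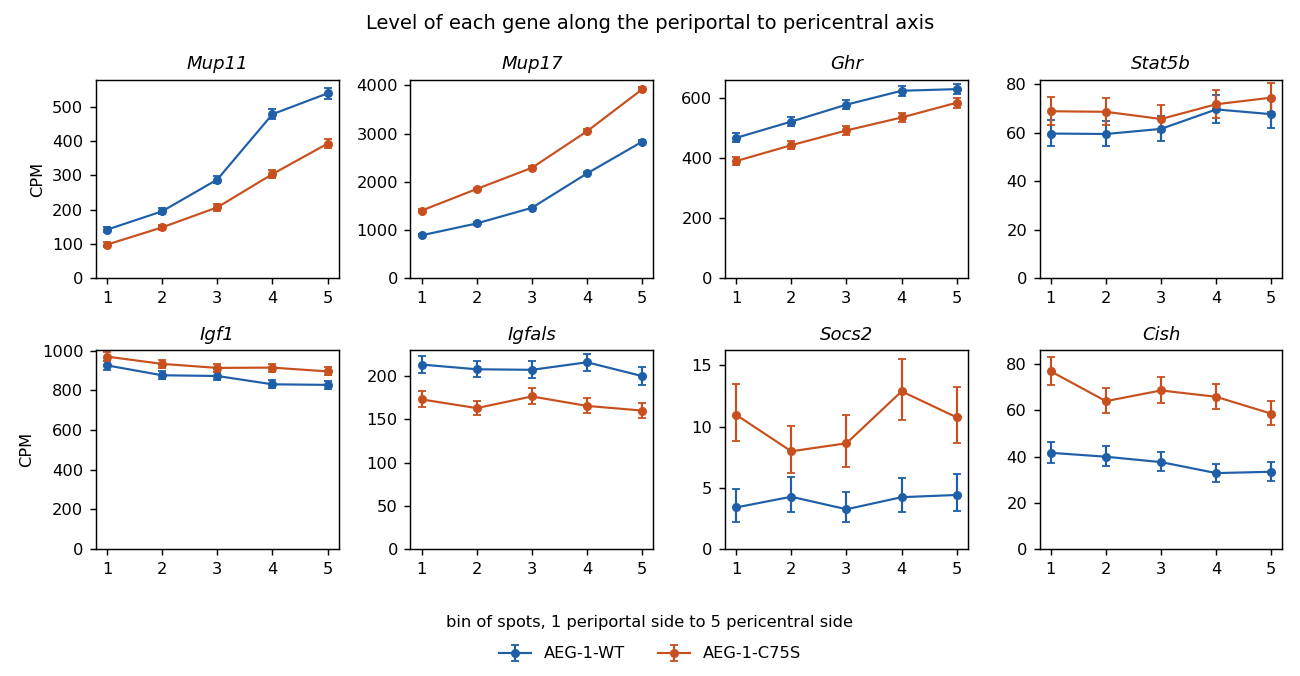
CPM of the 8 genes in each bin of spots, from 1 (periportal side) to 5 (pericentral side), in WT and C75S, with 95% exact Poisson intervals and axes from 0. Mup11 and Mup17 rise 2.79-fold to 4.01-fold across the axis in both sections, Ghr rises less, and Socs2 and Cish keep a gap between the sections in all 5 bins.

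Ghr rose in the same direction but less, from 467 to 630 CPM in WT and from 390 to 585 CPM in C75S. The pericentral level was 1.35-fold the periportal one in WT (log2 -0.43, interval -0.49 to -0.37) and 1.498-fold in C75S (-0.58, -0.65 to -0.52), which was just under the limit for a call and passed it when the bins were cut over both sections together (-0.59). Stat5b was at 59.7, 59.5, 61.6, 69.7 and 67.7 CPM in WT and at 68.9, 68.7, 65.7, 71.8 and 74.5 CPM in C75S. Of its 4 steps between neighbouring bins, 3 in WT and all 4 in C75S did not differ beyond counting error.

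Igf1 fell slightly towards the central vein, from 926 to 828 CPM in WT and from 971 to 896 CPM in C75S (log2 of bin 1 over bin 5 0.16, interval 0.11 to 0.21, and 0.12, 0.07 to 0.16). The receptor and this secreted product therefore sloped in opposite directions along the axis in both sections. Igfals lay between 200 and 216 CPM in WT and between 160 and 177 CPM in C75S, so that its highest bin in C75S was below its lowest in WT. Its range along the axis was 1.08-fold and 1.10-fold.

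Cish was at 41.6, 39.9, 37.6, 32.8 and 33.4 CPM in WT and at 76.9, 64.0, 68.6, 65.8 and 58.5 CPM in C75S. It was 1.25-fold and 1.31-fold higher on the periportal side (log2 0.32, interval 0.08 to 0.56, and 0.39, 0.22 to 0.57), opposite to the slope of Mup11 and Mup17. Socs2 was at 3.39, 4.27, 3.24, 4.23 and 4.41 CPM in WT, from 27 to 37 UMIs per bin, and at 10.96, 7.98, 8.64, 12.9 and 10.7 CPM in C75S, from 69 to 108 UMIs. No difference of Socs2 between bin 1 and bin 5 was detectable at this depth (log2 -0.38, interval -1.16 to 0.39, and 0.03, -0.41 to 0.47). Of its 4 steps between neighbouring bins, 0 in WT and 1 in C75S rose towards bin 5 beyond counting error.

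Other Mup genes differed from each other in zonation. Mup10 rose from 254 to 514 CPM in WT and from 298 to 586 CPM in C75S towards the central vein, as Mup11 and Mup17 did, and Mup12 was at 3.90 and 7.69 CPM in bins 1 and 5 of WT and at 4.86 and 8.60 CPM in those of C75S. Mup3 ran the other way, from 7818 to 4369 CPM in WT and from 5509 to 3612 CPM in C75S, with a periportal level 1.79-fold and 1.53-fold the pericentral one. Mup20 fell from 224 to 119 CPM (1.89-fold) and from 129 to 89.4 CPM (1.44-fold). The gradients of Mup3 and Mup20 were flatter in C75S, with counting intervals that did not overlap those of WT. For Mup20 the log2 ratio of bin 1 over bin 5 in WT was 0.92, and 0.64 in spots thinned to 5000 UMIs. Thinning also set the bins anew on fewer counts, and the part of depth in this change was not tested. In C75S the same log2 ratio of Mup20 ranged from 0.42 to 0.59 over the alternatives of the axis and the spots. No gradient could be read for Mup18, Mup4 and Mup6, which had too few counts.

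**Figure D3:**
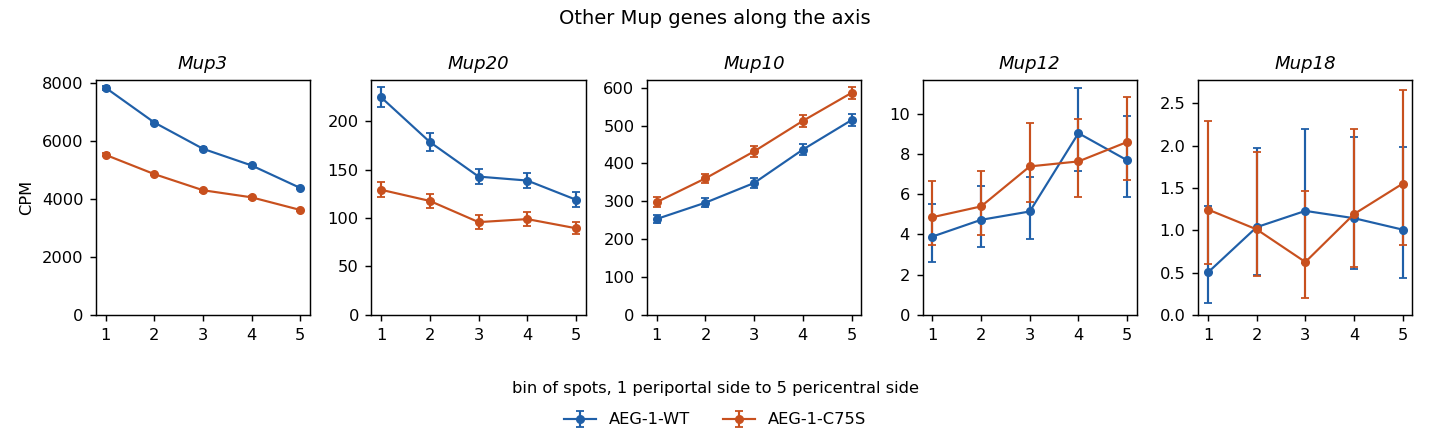
CPM of the other Mup genes with at least 50 UMIs in each bin from 1 (periportal side) to 5 (pericentral side), in WT and C75S, with 95% exact Poisson intervals. Mup3 and Mup20 fall towards bin 5 and are lower in C75S in all 5 bins, Mup10 rises in both sections, and Mup18 has too few counts for a slope to be read.

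The section differences were then read inside each bin, where the spots compared hold a like rank within their own section. A like rank need not be the same place in the lobule. With bins cut over both sections together, bin 5 held 578 spots of WT and 316 of C75S. Mup17, Socs2 and Cish were called higher in C75S in 5 of 5 bins and Mup11 lower in 5 of 5. The share of all genes called in every bin was not computed. The choice of the genes used these values, so nothing is read from these counts. The log2 ratio ran from 0.47 to 0.70 for Mup17, from 0.90 to 1.69 for Socs2, from 0.68 to 1.004 for Cish and from -0.66 to -0.40 for Mup11. For Mup17 it was 0.66, 0.70 and 0.65 in bins 1 to 3 and 0.49 and 0.47 in bins 4 and 5, with intervals of the first 3 above those of the last 2. On the log2 scale, with these 5 bins, the difference of Mup17 was thus smaller in the pericentral bins. With 10 bins the gradient of Mup17 was -1.90 in WT and -1.87 in C75S. The change of its ratio between the ends of the axis therefore depended on the number of bins. In CPM the gap between the sections was wider in bin 5 (2835 against 3922) than in bin 1 (891 against 1403). The part of the unlike bin limits in this pattern was not tested.

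Ghr had intervals below 0 in all 5 bins, from -0.26 in bin 1 to -0.11 in bin 5. Igfals did too, from -0.38 to -0.23, and was past the 1.3-fold limit in 1 bin. Igf1 had intervals above 0 in all 5, from 0.07 to 0.14, and Stat5b in 2 of 5, from 0.04 to 0.21. In all, 4 of the 8 genes had intervals above 0 in every bin and 3 below 0, beside 3.32% and 5.09% of the 11998 genes, and since the choice used these values nothing is read from the counts. For each of the 8 genes the ratio had the same sign in all 5 bins. This was not counted over all genes, so nothing is read from it either.

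**Figure D4:**
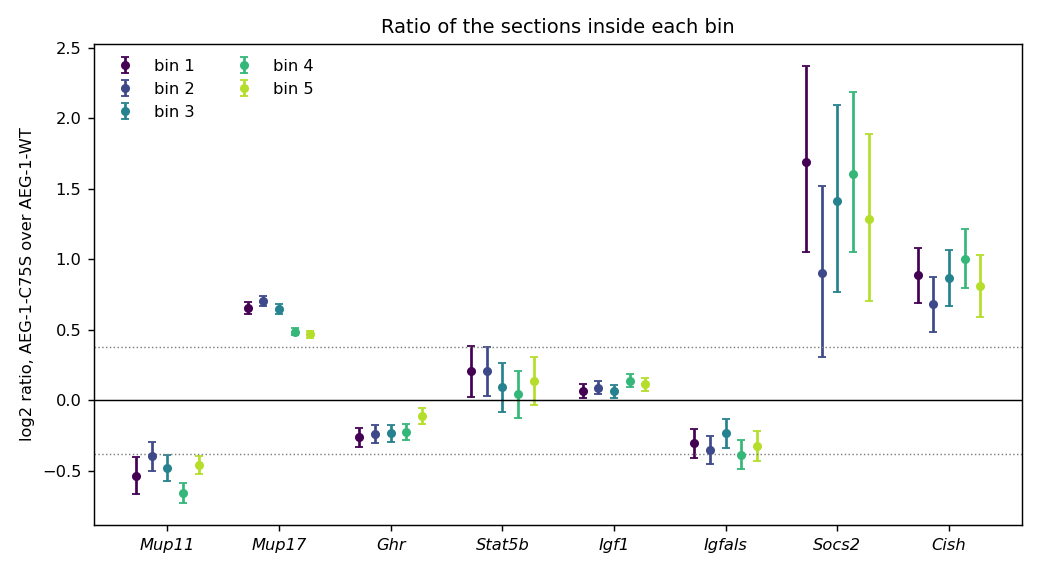
Log2 ratio (C75S over WT) inside each bin (1 periportal side, 5 pericentral side) for the 8 genes, with 95% counting intervals; the dotted lines mark 1.3-fold. Socs2 and Cish lie above the upper line in all 5 bins at 0.68 to 1.69, and the ratio of Mup17 is lower in bins 4 and 5 than in bins 1 to 3. That change of Mup17 along the axis depended on the number of bins.

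Spots of the same bin still differed in the urinary protein genes. Over all bins together, in spots thinned to 5000 UMIs, Mup17 ranged from 0 to 33 UMIs in WT, with a median of 7. In C75S it ranged from 1 to 56, with a median of 11. These ranges include its gradient along the axis. Within a bin the variance of the Mup17 counts was 1.52 and 1.48 times the mean (median over bins), where counting alone gives 1 and the median of all genes with a mean of at least 0.5 was 1.01 and 1.02. Beyond counting error, the relative SD between spots was 26.8% and 21.1% for Mup17 and 28.4% and 33.6% for Mup11, against 9.40% and 0% for Igf1, 9.35% and 10.7% for Ghr and 0% and 26.6% for Igfals. Cish and Socs2 were at 0% in WT and at 25.4% and 23.4% in C75S, there on means of only 0.331 and 0.0545 UMIs. The 26.6% of Igfals in C75S stands on a mean of 0.832 UMIs and a variance of 1.06 times the mean. The 28.4% of Mup11 in WT stands on a variance of 1.06 times the mean too. No interval was computed for these values, so they are not ranked against Mup17. The median over all genes with a mean of at least 0.5 was 8.65% in WT and 9.24% in C75S. How much of this spread comes from the gradient inside a bin was not tested.

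Over the 10 groups of spots (5 bins of 2 sections), the genes most like each of the 8 were found by Pearson's r of log2 CPM among 6881 genes with at least 1000 UMIs. The 10 points share 2 libraries and 1 axis, so r is given as a description. The closest were Cyb5a, Sod1 and Npr2 to Mup11 (0.994 to 0.996), Acot1, Mbl1 and BC004004 to Mup17 (0.994 to 0.998), and Sult2a8, Ces3a and Cyp2c69 to Ghr (0.99). For Stat5b they were Coq3, Rnft1 and Dennd1b (0.94 to 0.96), for Igf1 Tars, Cobl and Retsat (0.97 to 0.98), for Igfals Abl1 and As3mt (0.985 and 0.975), and for Cish Rpn1, Slc25a47 and Stat3 (0.99). Socs2 was under the minimum. Among the 8 genes themselves the closest pair was Mup11 and Ghr at 0.97, and the pair of urinary protein genes was at 0.68.

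The other genes of the pathway were read from lists by role. Of 16 genes of growth hormone receptor signalling, 4 were higher in C75S, 0 were lower and 12 were not called, with a median log2 ratio of 0.12 against -0.05 for all genes. Among all genes, 4.58% were called higher and 9.77% lower. The list holds Ghr, Stat5b, Socs2 and Cish, whose choice used these values, so nothing is read from the count. Beside Socs2 and Cish, the genes called higher were Socs3 and Irs2. Socs3, an inhibitor induced by several cytokines through Stat3, was at 15.5 and 23.6 CPM (0.61, interval 0.46 to 0.75). Irs2, an adaptor of the insulin receptor, was at 33.4 and 54.2 CPM (0.70, 0.60 to 0.80). The kinase Jak2 was at 24.0 and 21.4 CPM, Stat5a at 20.4 and 22.1 CPM, and Stat3 at 120 and 146 CPM (0.29). Socs3 and Irs2 were higher on the pericentral side, Socs3 by 1.86-fold and 1.82-fold and Irs2 by 1.38-fold, under the limit, and 1.59-fold, unlike Cish. The summed level of the 5 Kupffer cell markers was higher in C75S too, at 749.7 to 959 CPM over the bins of WT and 986 to 1340 CPM over those of C75S, and its part in these ratios was not tested.

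In the insulin-like growth factor system, 2 of 12 tested genes were higher, 3 were lower and 7 were not called (median -0.19), beside 4.58% higher and 9.77% lower among all genes. This list was chosen with earlier results of these data known, so nothing is read from the count. Igfbp1, a binding protein whose gene is held down by insulin, went from 48.8 to 309 CPM, 6.33-fold higher (2.66, interval 2.60 to 2.73), and in each bin its log2 ratio lay between 2.49 and 2.88. Igfbp2, also a binding protein of the liver, was at 1070 and 2370 CPM (1.15, interval 1.13 to 1.16). Both binding proteins thus differed far more than the factor they bind, Igf1, and than its receptor gene Igf1r, at 7.43 and 6.31 CPM.

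Lower in C75S were Igfbp3, the main carrier in the circulating complex with Igfals, at 49.4 and 36.2 CPM (-0.45, interval -0.54 to -0.35), Igfbp5 at 9.37 and 3.17 CPM (-1.57) and Igf2 at 37 and 14 UMIs (-1.38, interval -2.38 to -0.46). The connective tissue markers were lower as well, with their summed level at 133 CPM in bin 1 of WT and 42.7 CPM in that of C75S. With the 5% of spots richest in bile duct and connective tissue markers left out of each section, Igfbp5 was still called (-1.91 to -1.42 over all alternatives), Igfbp3 fell under the limit (-0.29) and Igf2 under the minimum of 50 UMIs.

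Among 6 liver genes known to respond to growth hormone, 3 were higher, 1 was lower and 2 were not called (median 0.50, against -0.05 for all genes), beside 4.58% and 9.77% of all genes. The list was not split by the direction of each gene's response, so its median does not measure a response to the hormone. The list was also chosen with earlier results of these data known, so nothing is read from its count. Bcl6 and Cux2 are counted again in the sex-biased lists below. Egfr, the epidermal growth factor receptor, was at 129 and 277 CPM (1.10), Onecut1, a hepatocyte transcription factor, at 28.2 and 53.7 CPM (0.93), and Bcl6, a repressor that opposes Stat5, at 19.2 and 31.2 CPM (0.70, interval 0.57 to 0.82). Cux2, a repressor typical of female liver, was at 28.5 and 20.04 CPM (-0.51, interval -0.64 to -0.38). Serpina3k was at 6576 and 8111 CPM and the prolactin receptor Prlr at 402 and 359 CPM, neither called.

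The sex-biased genes were read in these 2 females as well. Of 9 tested male-biased genes, 3 were higher (Elovl3, Bcl6 and Susd4) and 2 lower (Mup20 and Selenbp2), with a median of -0.04, beside 4.58% higher and 9.77% lower among all genes. Elovl3, a fatty acid elongase, had 29 and 52 UMIs and Susd4 145 and 187 UMIs, and neither was called in spots of 10000 to 30000 UMIs (0.56 and 0.30). Selenbp2 was at 21.8 and 10.4 CPM (-1.07), and the steroid hydroxylase Cyp7b1 at 39.5 and 33.0 CPM (-0.26, not called). Cyp4a12b, a cytochrome of male liver, had no UMI in either section, and Hsd3b5 had 26 and 19.

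Of 14 tested female-biased genes, 2 were higher, 7 were lower and 5 were not called, beside 4.58% higher and 9.77% lower among all genes, with a median of -0.40 against -0.05. The lower ones were Ntrk2 (300 and 55 UMIs, -2.43), A1bg (865 and 298 CPM, -1.54), the cytochromes Cyp2b13 (117 and 51.6 CPM, -1.18) and Cyp17a1 (226 and 162 CPM, -0.48), the thioesterase Acot3 (251 and 143 CPM, -0.81), Cux2 and the monooxygenase Fmo2 (65.7 and 47.9 CPM, -0.46). Cyp3a44 (106 and 167 CPM, 0.65) was among the higher ones. Male-biased and female-biased genes were thus each found on both sides of 0. Both lists were chosen with earlier results of these data known, so nothing is read from their counts or medians.

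**Figure D5:**
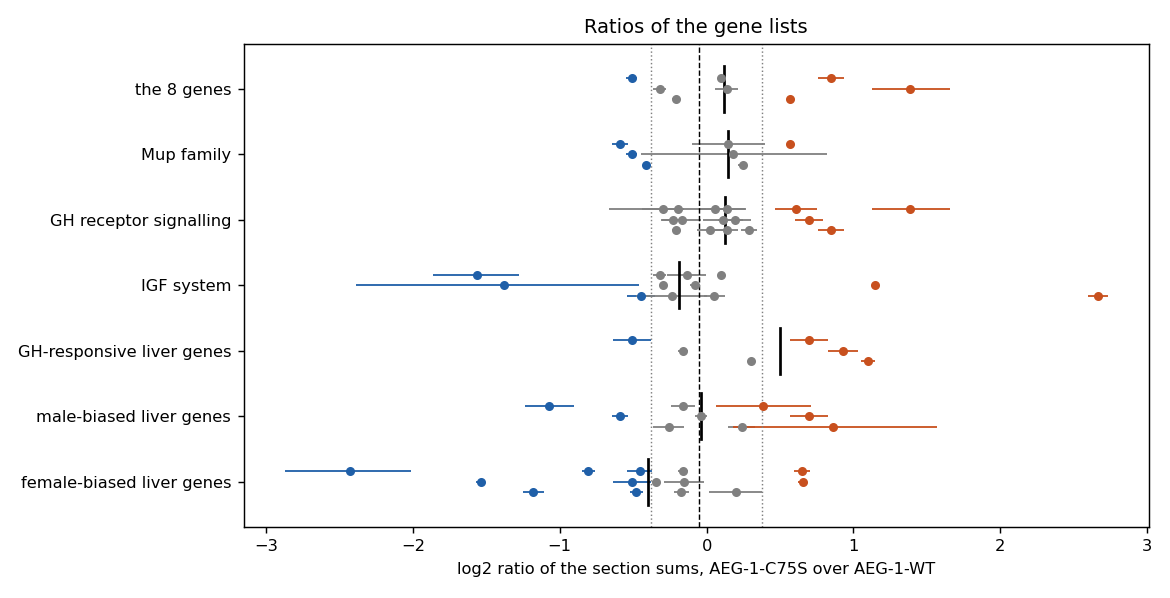
Log2 ratio of C75S over WT over the whole sections for the tested genes of each list, 1 point a gene with its 95% counting interval; short black lines are list medians, the dashed line is the median of all genes (-0.05), dotted lines mark 1.3-fold, and called genes are coloured. Igfbp1 stands farthest to the right at 2.66, and 7 of 14 female-biased genes lie left of the lower limit, beside 9.77% of all genes called lower. The lists were chosen with earlier results of these data known, so nothing is read from their counts.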

How the data were processed

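Per the labels and the study's methods, the deposited tables of UMI counts were made by the authors in Space Ranger 2.0.1, on the mm10 build with its probe set, and were analysed by them in Seurat 4.3.0. The values are raw counts per gene and spot, without normalization, and the spots under tissue are listed.

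Spots with more than 50000 UMIs were left out, as in the methods (7 of WT and 4 of C75S). For the 11 repeated symbols, the entry listed first was taken. UMIs were summed per section or bin and divided by the total as CPM, using scipy 1.17.1, pandas 2.3.3 and numpy 2.4.6 under python 3.11.15, and edgeR 4.0.16 (R 4.3.3) gave TMM factors. Intervals are at 95%. No test was made, with 1 section per genotype. The genes named were the 8 genes, every Mup gene with at least 50 UMIs, the called genes of the lists, genes of the lists given for their role and, for each of the 8, the 3 most alike. Of the genes so named, 2 are not reported here. The 8 genes and all lists were chosen with earlier results of these data known. The probe sequences were not in the sources, so whether the Mtdh probes cover the edited codon is not known here. The section ratio and its interval were tested on simulated Poisson sums of whole sections, and the other steps were not simulated.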

Additional observations from a re-analysis of the deposited data

How the results depend on the processing

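No paired analysis was possible because each genotype has 1 section. The section ratios of the 8 genes kept their sign and their calls under all 9 alternatives of spots, weights and scaling that were tried (all spots, equal weight per spot, totals without all Mup genes or without the 20 most abundant genes, centring on the median gene, TMM factors, thinning to 5000 UMIs, spots of 10000 to 30000 UMIs, and leaving out the 5% of spots richest in bile duct and connective tissue markers). The log2 ratio ranged from -0.57 to -0.45 for Mup11, from 0.54 to 0.62 for Mup17, from 1.37 to 1.69 for Socs2 and from 0.83 to 0.90 for Cish. The gradients of Mup11 and Mup17 were called in both sections under all 10 alternatives of the axis and the spots, from -2.52 to -1.21, with 3 bins and 10 bins at the ends. The gradient of Ghr in C75S was called in 3 of the 10, and that of Mup3 there was not called with 3 bins (0.48).

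The limits of a call moved the counts most. At 1.2-fold, 2 of the 8 genes were lower, 895 of all genes were higher and 1863 lower, 1 gene of receptor signalling was lower and 5 of the growth factor system. At 1.5-fold, 0 of the 8 genes were lower, 248 of all genes were higher and 577 lower, 0 Mup genes were higher and 1 lower, 0 growth hormone-responsive genes were lower and 4 female-biased genes were lower. Thinning left 1 gene of the growth factor system lower and 1 male-biased gene higher, spots of 10000 to 30000 UMIs left 1 male-biased gene higher, and leaving out the portal spots left 1 gene of the growth factor system lower. A minimum of 1 or 200 UMIs could not move the counts of the 8 genes. The lowest of them, Socs2, had 591 UMIs over both sections.

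With 1 animal per genotype, differences between animals, blocks, sections and libraries cannot be told apart from the genotype. Intervals cover counting error only, and no interval covers the spread between mice.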
